A study of Mus musculus with 35 samples.

Results

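The genes described here are the HoxA, HoxB and HoxC homeobox clusters of the mouse, taken as the rows of the expression table named Hoxa, Hoxb or Hoxc followed by a number. They comprise 29 genes of the 21350 in the table, with 10 in HoxA, 10 in HoxB and 9 in HoxC. In GENCODE M21 on GRCm38 (mm10), the HoxA genes lay on chromosome 6 from 52162417 to 52260880 on the minus strand (98.5 kb). The HoxB genes lay on chromosome 11 from 96194316 to 96368256 on the plus strand (173.9 kb), and the HoxC genes on chromosome 15 from 102921103 to 103036852 on the plus strand (115.8 kb). Of the 29, 27 passed the filter on low values (at least 10 in at least 2 libraries), and Hoxb13 and Hoxc12 did not.

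Hox genes encode homeodomain transcription factors that give cells a position along the head to tail axis. Within a cluster they are ordered by paralog number, and in the embryo low-numbered paralogs are switched on first and reach furthest anteriorly, while high-numbered ones are posterior. Polycomb complexes keep the clusters silent and trithorax complexes of the MLL family keep them active. Retinoic acid, Wnt and FGF signals and the caudal factors Cdx1, Cdx2 and Cdx4 open them in the caudal embryo. Fibroblasts keep the Hox pattern of the body region they come from, whereas embryonic stem cells hold most Hox genes under Polycomb. Kdm2b, a demethylase with a zinc finger that binds unmethylated CG dinucleotides, brings the variant Polycomb complex PRC1.1 to CpG islands.

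The study followed cells that were infected with factor combinations and then grown in iCD1, a reprogramming medium, with mRNA measured by poly-A selected sequencing. The combinations are labelled OB, OA and ODR, names that the labels do not expand, and Oct4, Kdm2b and PRC1.1 are named in the study's title and design. The 27 tested libraries are 2 each of OB, OA and ODR at day 1, then 2 of OB with BMP4, 4 of OB, 3 of OA, 1 of ODR with BMP4 and 2 of ODR at day 6, and 3 each of OB, OA and ODR at day 14. BMP4 was given at 10 ng/ml from the change to iCD1. All these cells were described as reprogramming cells, and neither the cells they started from nor the origin of the replicates is stated. The untested libraries were 1 each of ODB and ODDR at day 9 with and without BMP4, of mouse embryonic stem cells (mESC) and of embryonic fibroblasts (MEF).

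The values are the authors' normalized tag counts, whose totals ran from 4255921 to 4398785 per library. No Hox value came near the shared ceiling of 18690, since the highest in the tested libraries was 734. Kdm2b was at 4220 to 18690 in OB libraries, against 202 to 342 in OA and 230 to 460 in ODR libraries. Kdm2a, its paralog, was at 9294 or 18690 in OA libraries except the one labelled OA day 14 replicate 2, where it was 721. Pou5f1 (Oct4) was at the ceiling in every tested library except OB day 14 replicate 1 (7086). The ODR day 6 replicate 3 and ODR with BMP4 day 6 replicate 2 columns were identical at all 21350 genes and were left out of both groups. The 2 day 9 columns with BMP4 were also identical, with Kdm2b at 239, so the library labelled ODB with BMP4 lacked the high Kdm2b of ODB without it (18690).

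The MEF library had 22 of the 29 genes at 10 or more, and the mESC library had 21 at 5 or less. In mESC, 6 genes reached 10 or more: Hoxa10 (19), Hoxb9 (148), Hoxb13 (59), Hoxc4 (47), Hoxc5 (10) and Hoxc13 (103). The heat map of all libraries shows the day 14 OB libraries standing above the rest in most rows.

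**Figure D1:**
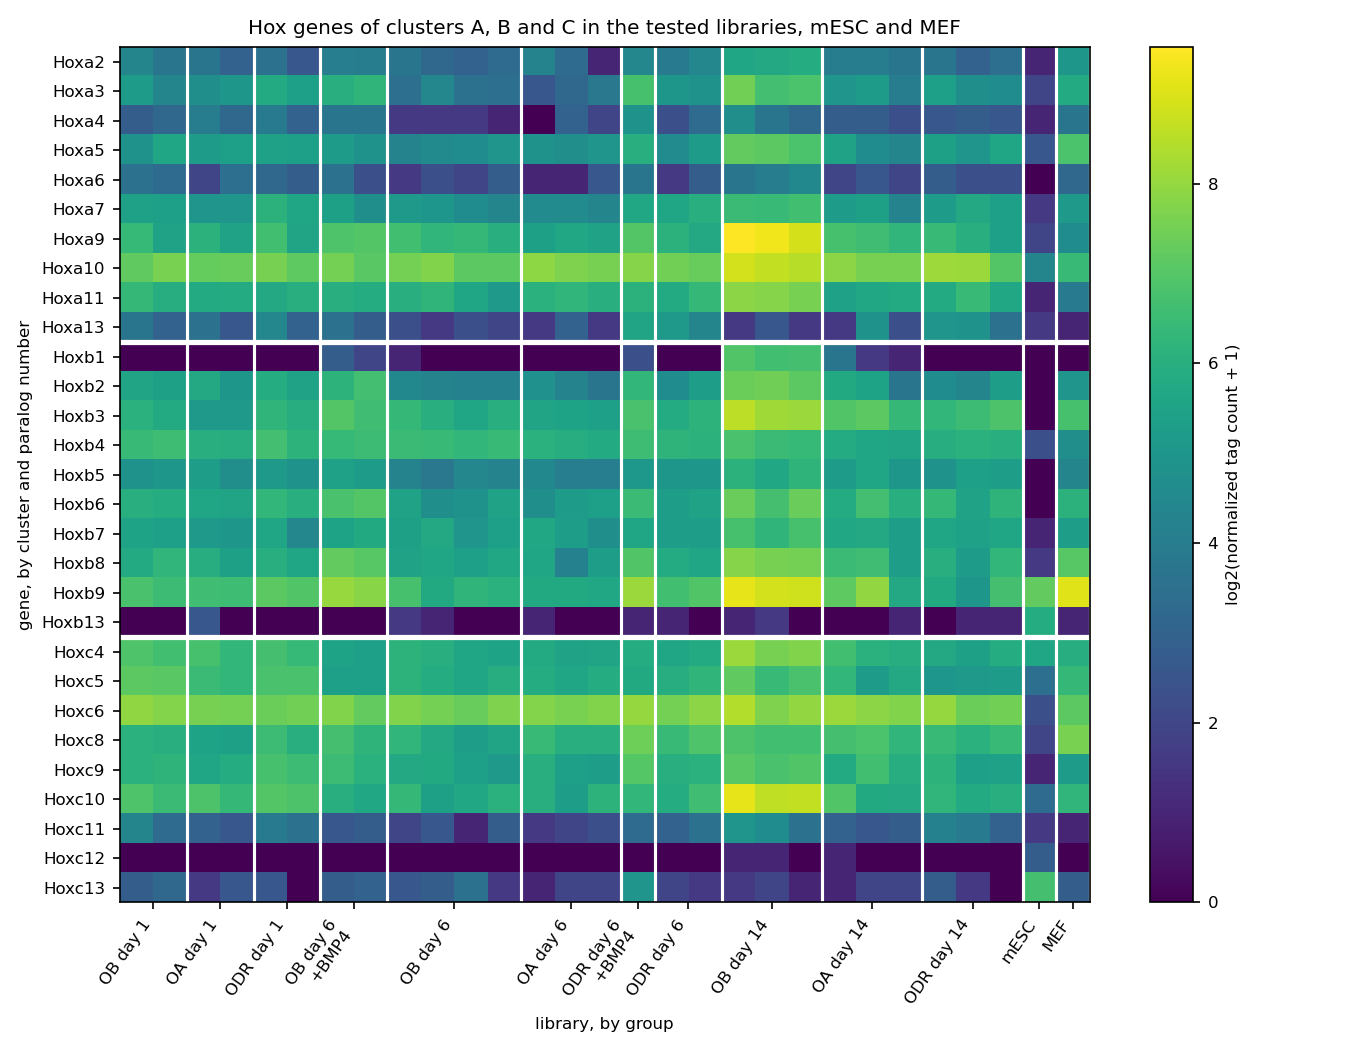
Level of each Hox gene (rows, by cluster and paralog number) in each of the 27 tested libraries and in mESC and MEF (columns, grouped), as log2 of the normalized tag count plus 1. The 3 OB day 14 columns are the brightest in most rows, and Hoxb13 and Hoxc12 stay at 5 or less outside mESC, where they were 59 and 6.

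At day 14, cells of the OB combination had more RNA from most genes of all 3 clusters than ODR cells. Of the 27 tested genes 21 rose, 1 fell and 5 did not pass the test, where 54.7% of all 13860 tested genes were called (28% up and 26.7% down). A gene is called where the Benjamini-Hochberg adjusted p of the limma fit over all tested genes is below 0.05. The median log2 difference of the Hox genes was 1.57, against 0.01 for all genes. By cluster, 8 of 10 HoxA genes rose and Hoxa13 fell, all 9 tested HoxB genes rose, and 4 of 8 HoxC genes rose. Whether more cells with Hox RNA or more Hox RNA per cell lay behind these values cannot be told apart in bulk libraries.

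Hoxb1, an anterior gene of the early hindbrain and primitive streak, had 120, 98 and 104 in OB at day 14 and was listed at 0 in all 3 ODR libraries. It passed the filter only through the OB day 14 libraries, so its call (adjusted p = 4.74e-09) was fixed by that choice, and no fold is given. Without it 20 of 26 Hox genes rose (median 1.42), with all 8 other tested HoxB genes among them. The same holds for Hoxb1 in every other comparison or count that uses OB at day 14. Hoxb2, which patterns the hindbrain, had 168, 176 and 140 in OB, against 24, 19 and 38 in ODR, a log2 difference of 2.59 ± 0.41 (SE, adjusted p = 3.91e-05). Its neighbour Hoxb3 had 384, 288 and 274 in OB, against 79, 91 and 114 in ODR (1.73 ± 0.21, adjusted p = 2.11e-06). The groups of these 3 genes did not overlap. The exons of Hoxb2 and Hoxb3 overlap Hoxb3os on the other strand, and whether the counting used strand is not given.

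The middle of HoxB changed least within its cluster. Hoxb4, known for its role in blood progenitor growth, had 109, 89 and 83 in OB, against 60, 66 and 61 in ODR (0.57 ± 0.13, adjusted p = 0.000993). Hoxb5, Hoxb6 and Hoxb7, which act in the trunk, rose by 0.82, 1.13 and 1.02 on the log2 scale. The differences grew again towards the posterior end. Hoxb8, a gene of the trunk and of myeloid progenitors, had 218, 188 and 182 in OB, against 62, 37 and 79 in ODR (1.77 ± 0.35, adjusted p = 0.000377). Hoxb9, a thoracic gene, had 578, 466 and 450 in OB, against 54, 32 and 105 in ODR (3.10 ± 0.42, adjusted p = 8e-06). Hoxb13, the most posterior HoxB gene, was at 2 or less in both groups. OB libraries lay above all ODR libraries for each of the 9 tested HoxB genes, with Hoxb1 among them through the filter. The share of all genes that lay apart in this way was not counted.

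In HoxA, the largest rise was that of Hoxa9, a posterior gene also known as a leukaemia gene, with 734, 640 and 482 in OB, against 87, 62 and 40 in ODR (3.32 ± 0.31, adjusted p = 1.1e-07). Hoxa2, which patterns the branchial arches, had 47, 53 and 58 in OB, against 12, 7 and 10 in ODR (2.35 ± 0.52, adjusted p = 0.000958). Hoxa3, needed for pharyngeal organs, had 178, 101 and 112 in OB, against 40, 26 and 24 in ODR (2.07 ± 0.36, adjusted p = 9.47e-05). No OB library overlapped an ODR library in these 3 genes. Hoxa11, a limb and uterus gene, had 232, 220 and 187 in OB, against 55, 84 and 50 in ODR (1.77 ± 0.23, adjusted p = 5.18e-06). Hoxa5, Hoxa6, Hoxa7 and Hoxa10 rose by 1.73, 1.57, 1.06 and 0.94 on the log2 scale. Hoxa4 had 25, 12 and 8 in OB, against 5, 6 and 5 in ODR, and did not pass the test (1.20 ± 0.54, adjusted p = 0.0678). Exons of Hoxa3, Hoxa4, Hoxa7 and Hoxa11 overlap genes on the other strand, among them Hoxaas3 and Hoxa11os.

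Hoxa13, the last HoxA gene and a factor of the digits and hindgut, went the other way. It had 2, 5 and 2 in OB, against 30, 28 and 11 in ODR, with no overlap (-2.55 ± 0.67, adjusted p = 0.00343).

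In HoxC, Hoxc10, a gene of the lumbar region and hindlimb, had 575, 388 and 402 in OB, against 77, 56 and 62 in ODR (2.78 ± 0.32, adjusted p = 1.24e-06). Hoxc4, at the anterior end of the cluster, had 274, 191 and 210 in OB, against 53, 42 and 58 in ODR (2.12 ± 0.21, adjusted p = 2.56e-07). Hoxc5 had 146, 84 and 109 in OB, against 31, 34 and 36 in ODR (1.68 ± 0.22, adjusted p = 4.69e-06). These groups were apart, although annotated exons of Hoxc5 and Hoxc10 overlap on the same strand, so that their reads could be split between them. Hoxc9, a thoracic gene, rose by 1.27 ± 0.25 (adjusted p = 0.000289). Hoxc6, Hoxc8, Hoxc11 and Hoxc13 had differences of 0.39, 0.41, 0.70 and 0.06 and did not pass (adjusted p = 0.101, 0.136, 0.181 and 0.948).

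Read by paralog position and leaving out Hoxb1, all 4 other anterior genes (numbers 1 to 3) rose, with a median log2 difference of 2.21. Of 13 central genes (4 to 8) 10 rose (median 1.13), and of 9 posterior genes (9 to 13) 6 rose and 1 fell (median 1.27). Among the posterior paralogs, number 9 rose by 3.32, 3.10 and 1.27 in HoxA, HoxB and HoxC, and number 10 by 0.94 in HoxA and 2.78 in HoxC. Of number 13, Hoxa13 fell and Hoxc13 differed by 0.06. The plot of differences by gene shows the dip at Hoxb4 and the high points at Hoxa9, Hoxb9 and Hoxc10, leaving out Hoxb1.

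**Figure D2:**
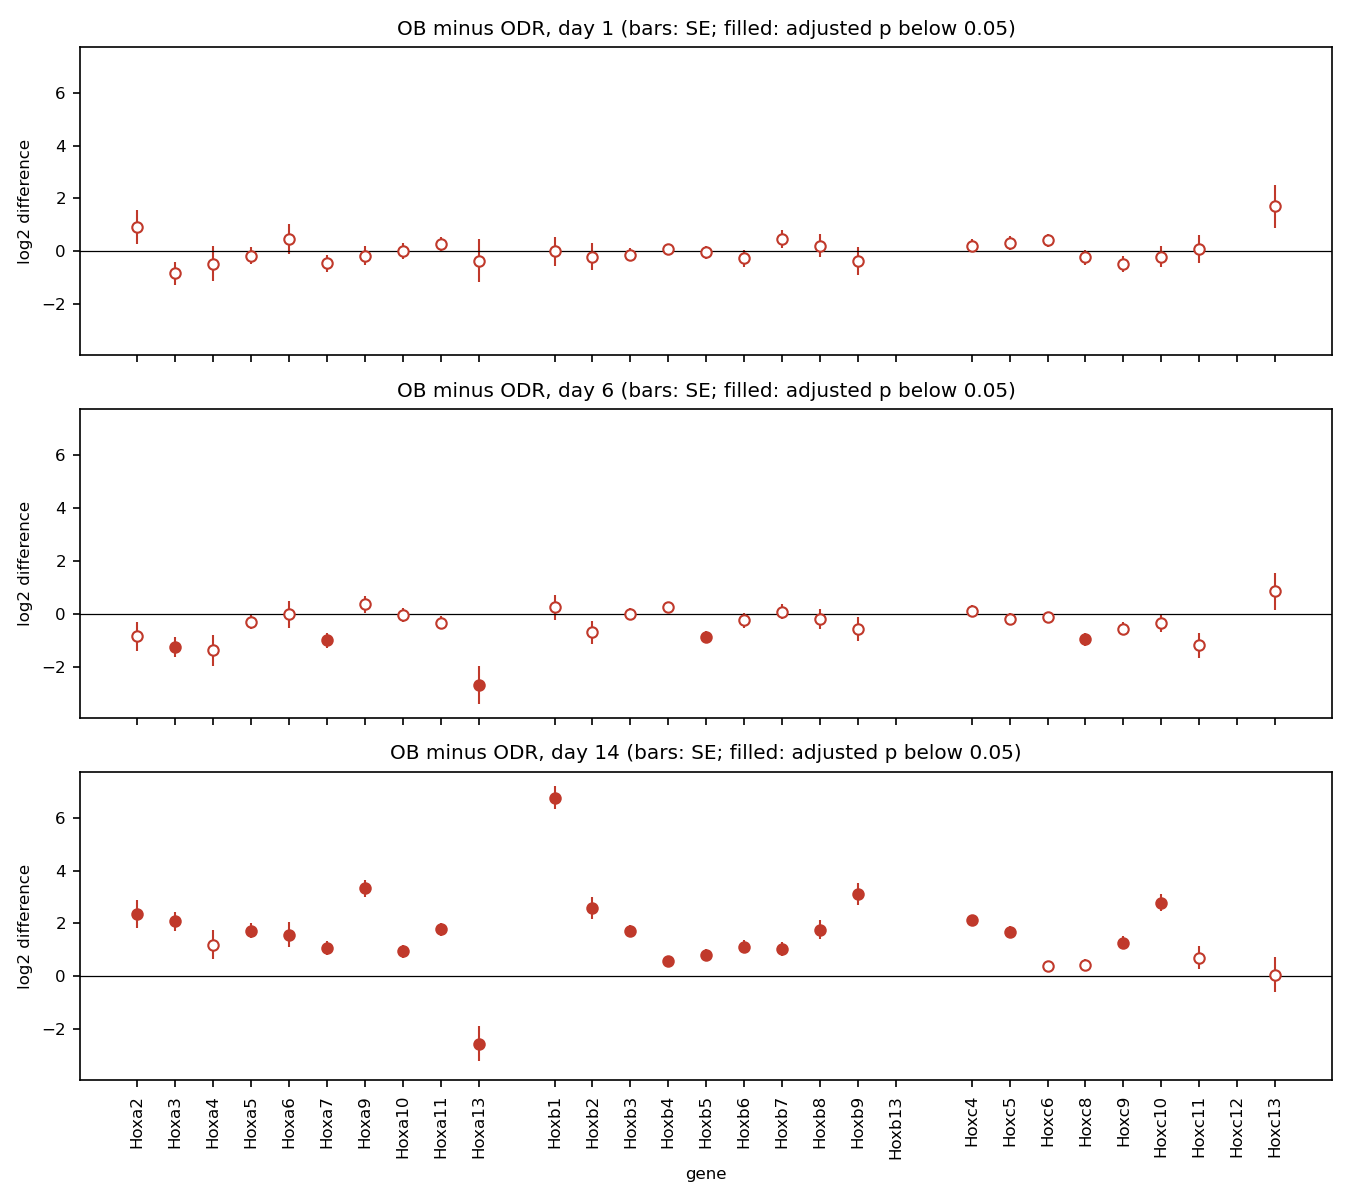
Log2 difference of OB minus ODR (limma, bars are SE) for each tested Hox gene at days 1, 6 and 14, in cluster and paralog order on 1 scale, with filled points for an adjusted p below 0.05. Filled points are absent at day 1, 5 lie below 0 at day 6, and at day 14, 21 lie above 0 and Hoxa13 below.

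Promoter sequences are shown for 3 of the rising genes and for the 1 that fell at day 14, because Kdm2b binds unmethylated CG. They are the 250 bases before the start in RefSeq (GRCm38.p6), 5′ to 3′, with each CG in capitals. Hoxb1 (chr11:96365508-96365757, plus strand), Hoxa9 (chr6:52227371-52227620, minus strand) and Hoxa11 (chr6:52245811-52246060, minus strand) rose in OB, and Hoxa13 (chr6:52260881-52261130, minus strand) fell.
Hoxb1: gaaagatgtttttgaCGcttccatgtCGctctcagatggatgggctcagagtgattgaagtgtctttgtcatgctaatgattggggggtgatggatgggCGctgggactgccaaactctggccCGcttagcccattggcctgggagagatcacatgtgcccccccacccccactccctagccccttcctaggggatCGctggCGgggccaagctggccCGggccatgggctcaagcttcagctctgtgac
Hoxa9: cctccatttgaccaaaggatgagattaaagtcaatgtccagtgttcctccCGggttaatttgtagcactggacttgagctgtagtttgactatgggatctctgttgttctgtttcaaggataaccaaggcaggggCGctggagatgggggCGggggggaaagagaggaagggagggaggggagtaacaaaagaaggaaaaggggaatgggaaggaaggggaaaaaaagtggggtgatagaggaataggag
Hoxa11: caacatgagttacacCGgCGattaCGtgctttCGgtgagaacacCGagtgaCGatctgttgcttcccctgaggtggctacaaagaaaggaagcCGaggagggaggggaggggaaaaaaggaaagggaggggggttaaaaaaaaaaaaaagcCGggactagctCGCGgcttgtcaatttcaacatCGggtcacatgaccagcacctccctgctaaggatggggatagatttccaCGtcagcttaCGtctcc
Hoxa13: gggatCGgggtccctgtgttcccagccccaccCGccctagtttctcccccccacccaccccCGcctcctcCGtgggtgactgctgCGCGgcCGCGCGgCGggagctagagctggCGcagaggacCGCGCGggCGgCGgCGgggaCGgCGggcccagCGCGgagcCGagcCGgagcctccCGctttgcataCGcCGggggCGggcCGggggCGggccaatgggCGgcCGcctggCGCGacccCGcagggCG

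These windows hold 7 CG in Hoxb1, 3 in Hoxa9, 13 in Hoxa11 and 35 in Hoxa13. The Hoxa9 window lies inside the gene as GENCODE M21 gives it (chr6:52223100-52231089), so it does not precede the most upstream annotated start. Other genes that rose had CG-rich windows as well, with 28 CG in Hoxa5, 24 in Hoxa6 and 18 in Hoxa3. Among the 32851 promoter windows of the table the median was 6 CG (quartiles 2 and 16), and 97.4% had no more than Hoxa13. The table matched 13 of the 29 Hox genes with 14 windows, whose median was 12.5 CG. The caudal factor motif TTTATG, searched on both strands, was in 2 of the 14 (14.3%, in Hoxa7 and Hoxb8) and in 10.8% of all windows. The motif TGATNNAT of Hox proteins with their cofactors, on both strands, was in 3 of the 14 (21.4%, in Hoxa2, Hoxb1 and Hoxb8) and in 7.7% of all. These are matches of letters in a short window and describe no binding.

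Markers of other cell types differed between the same libraries, those of caudal and primitive streak cells among them. The summed level of the 8 markers listed for them (T, Nkx1-2, Cdx1, Cdx2, Cdx4, Tbx6, Fgf8 and Wnt3a, all in the table) was 831 to 999 in OB at day 14, 11 to 139 in OA and 0 to 1 in ODR. Fgf8 was at 0 in all 3 OB libraries, and 7 of the 8 were at 0 in all ODR libraries. The sum of 14 fibroblast and mesenchymal markers was 25429 to 35432 in OB, against 45004 to 54766 in ODR, and a sum follows its most abundant genes. By gene, 3 of the 14 were called higher in OB and 4 lower (median log2 difference -0.22). Over all genes 28% were called higher and 26.7% lower. The 12 pluripotency markers summed to 1116 to 1202 in OB, against 122 to 124 in ODR and 23212 in mESC. By gene, 2 of 5 tested pluripotency markers were called higher in OB and 0 lower (median log2 difference 0.67). This leaves out Lin28a, which passed the filter only through OB day 14. Epithelial markers (7) summed to 80 to 215 in OB, against 7 to 10 in ODR, with Cdh1 and Cldn6 at 0 in ODR. Endothelial markers (5) summed to 63 to 136 in OB, against 236 to 325 in ODR, and leukocyte markers (6 in the table) to 10 to 40, against 44 to 89. By gene, 1 of 4 endothelial genes was called higher and 2 lower, leaving out Cdh5, which passed the filter only through OB day 14. Of 6 leukocyte genes 0 were called higher and 1 lower. The part of any such cells in the Hox differences was not tested.

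OB also stood above OA at day 14, the combination with high Kdm2a. Of the 27 genes 22 were higher in OB and 0 lower (51.7% of all tested genes called, 26.5% up), with a median log2 difference of 1.49, or 21 of 26 without Hoxb1. Both comparisons use the same OB libraries. Hoxc11, which did not pass against ODR, had 30, 24 and 11 in OB, against 7, 5 and 6 in OA (1.60 ± 0.43, adjusted p = 0.00488). Hoxa9 had 734, 640 and 482 in OB, against 107, 97 and 76 in OA (2.71 ± 0.31, adjusted p = 1.5e-06). For Hoxc10, OB had 575, 388 and 402 and OA 120, 54 and 52 (2.67 ± 0.32, adjusted p = 2.72e-06). For Hoxa11, OB had 232, 220 and 187 and OA 43, 50 and 55 (2.09 ± 0.23, adjusted p = 1.3e-06). In each of these, every OB value lay above every OA value.

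OA differed from ODR in 1 Hox gene at day 14, where 5.35% of all genes were called (2.82% up). Hoxb1 had 12, 2 and 1 in OA and was listed at 0 in ODR (adjusted p = 0.00987), and it was no longer called with a pseudocount of 8 (adjusted p = 0.066). Hoxb9 had 142, 254 and 52 in OA, against 54, 32 and 105 in ODR (1.11 ± 0.42, adjusted p = 0.151), and these ranges overlapped. The library labelled OA day 14 replicate 2, which lacked high Kdm2a, held the 254 for Hoxb9. It also had 28 for Hoxa13, against 2 and 4 in the other OA libraries. Without this library 3 Hox genes were called between OA and ODR, and without OA day 14 replicate 3 there were 2.

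Across all 27 tested libraries, 15 Hox genes had their 3 OB day 14 values above every value of the other 24 libraries, where 13.8% of all tested genes did. They were 6 HoxA, 7 HoxB and 2 HoxC genes (Hoxa2, Hoxa5, Hoxa7, Hoxa9, Hoxa10, Hoxa11, Hoxb1, Hoxb2, Hoxb3, Hoxb5, Hoxb7, Hoxb8, Hoxb9, Hoxc4 and Hoxc10). The fibroblast library was exceeded as well. All 3 OB day 14 libraries lay above MEF for 22 of the 27 tested genes (42.8% of all genes) and below it for Hoxc8 (114, 98 and 99, against 192) and Hoxc13 (2, 3 and 1, against 6), where 38.7% of all genes lay below. All 3 OA day 14 libraries lay above MEF for 10 Hox genes (34.1% of all genes) and below it for 10 (35.6%). All 3 ODR libraries lay above it for 11 (38.4% of all genes), Hoxa10 and Hoxa13 among them, and below it for 10 (41.1%). The shares of Hox genes above MEF, 37% for OA and 40.7% for ODR, are near those of all genes. MEF is 1 library, so these positions have no test.

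**Figure D3:**
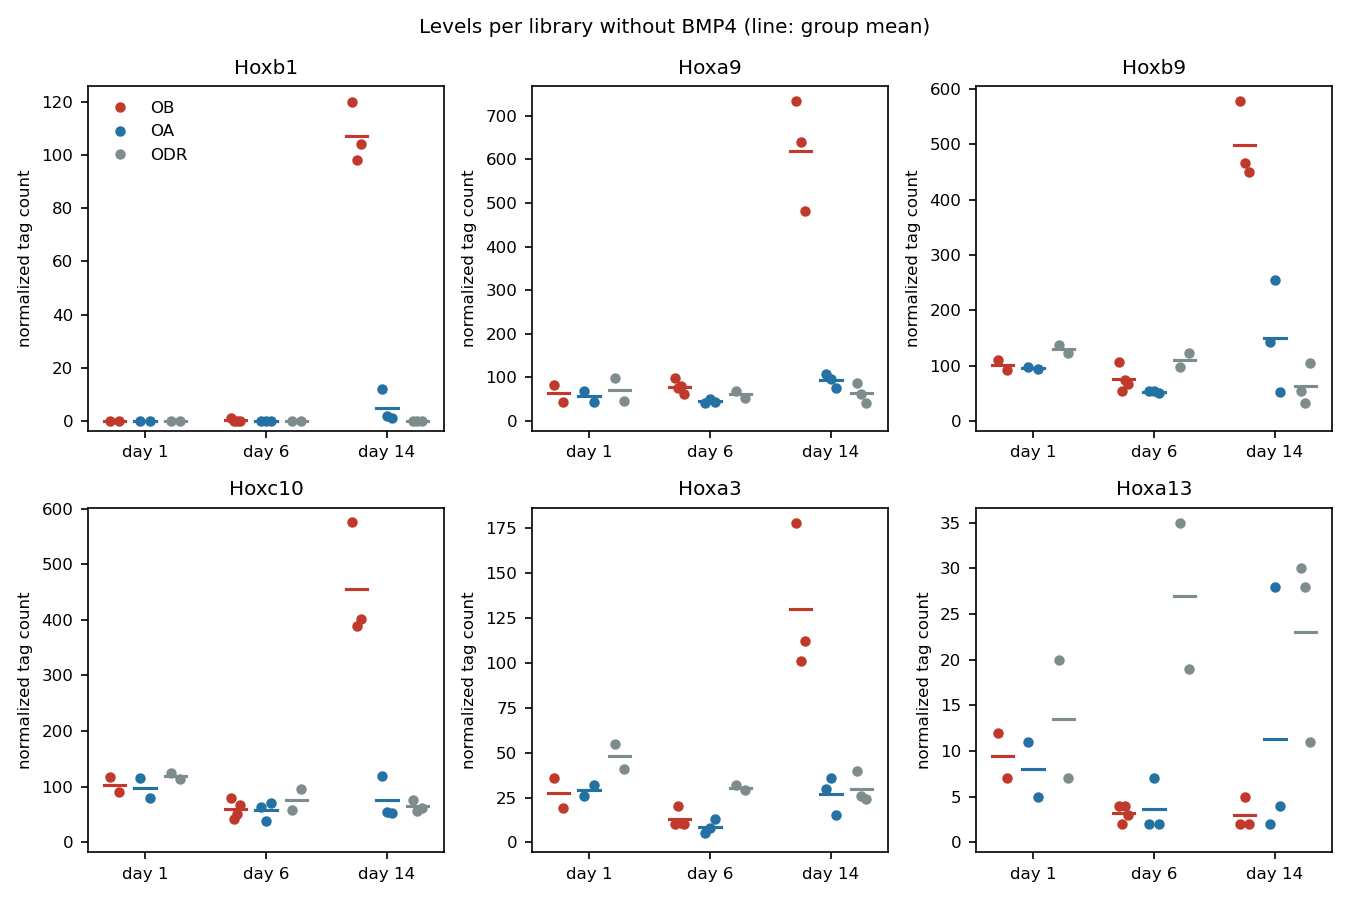
Normalized tag counts per library for 6 Hox genes in OB, OA and ODR without BMP4 at days 1, 6 and 14 (points are libraries, lines are group means). For Hoxb1, Hoxa9, Hoxb9, Hoxc10 and Hoxa3 the OB day 14 libraries lie above all others shown, and for Hoxa13 the ODR libraries are the highest at day 6.

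The same comparison at the earlier days asks when the clusters parted. At day 1 no Hox gene was called between OB and ODR, where 0.88% of all genes were. An unadjusted limma p below 0.05 was seen for 0 of the 27, and for 1287 of all 13860 genes. Between OA and ODR at day 1 limma called 0 (0.0649% of all genes called), and between OB and OA 0 (1.4%). At an unadjusted limma p below 0.05, OA against ODR had 5 Hox genes and 714 of all 13860 genes. OB against OA had 3 Hox genes and 1563 of all genes at that level. Hoxa9, for example, had 82 and 44 in OB, 68 and 44 in OA and 98 and 46 in ODR at day 1, with full overlap.

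At day 6 the called differences ran downward. Between OB and ODR 0 Hox genes rose and 5 fell, where 10.5% of all genes were called (4.81% down), and the median was -0.30. Hoxa13 had 4, 2, 4 and 3 in OB, against 35 and 19 in ODR (-2.69 ± 0.71, adjusted p = 0.0203). It was low in OA at day 6 as well, with 2, 7 and 2, although that difference from ODR was not called. Hoxb5, a gene of the lung and gut mesenchyme, had 18, 13, 20 and 18 in OB, against 32 and 32 in ODR (-0.87 ± 0.21, adjusted p = 0.0131). Hoxc8, a brachial and thoracic gene, had 76, 52, 38 and 46 in OB, against 86 and 118 in ODR (-0.96 ± 0.24, adjusted p = 0.0158). These groups did not overlap, and neither did those of Hoxa3 (10, 20, 11 and 10 in OB, against 32 and 29 in ODR) and Hoxa7 (34, 31, 24 and 19, against 47 and 61). Hoxa3 and Hoxa7 fell by 1.25 ± 0.38 and 1.00 ± 0.28 (adjusted p = 0.0438 and 0.0304).

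Those day 6 calls rested on the 2 ODR libraries. Without ODR replicate 2, 0 Hox genes were called, without ODR replicate 1 there was 1, and without OB replicate 3 or 4 there were 3. Between OA and ODR at day 6, Hoxa3 and Hoxa7 fell, where 2.22% of all genes were called (0.88% down). Hoxa3 had 5, 8 and 13 in OA, against 32 and 29 in ODR (-1.79 ± 0.40, adjusted p = 0.0259), and Hoxa7 had 23, 23 and 19, against 47 and 61 (-1.27 ± 0.30, adjusted p = 0.0323). Leaving out either ODR library, OA replicate 1 or OA replicate 2 left 0 of these calls, and leaving out OA replicate 3 left 1. Without the library labelled OA day 14 replicate 2, which bears on the pooled spread, 4 were called. Hoxb4 was the 1 Hox gene called between OB and OA (7.28% of all genes, 3.92% up), with 88, 86, 78 and 84 in OB, against 66, 60 and 55 in OA (0.47 ± 0.12, adjusted p = 0.0212). It was lost without OA replicate 2, OA replicate 3 or OB replicate 1.

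Over time, some Hox genes fell in OB cells before most rose. Of the 27 genes 0 rose and 8 fell at day 6 against day 1 (33.8% of all genes called, 17.1% down), and 24 rose and 0 fell at day 14 against day 6 (55%, 26.8% up). In the first interval the share of Hox genes called in either direction was not above that of all genes. The 3 that did not pass in the second interval were Hoxb4, Hoxa13 and Hoxc13. Hoxc5 averaged 137 ± 4.24 at day 1, 58.8 ± 9.43 at day 6 and 113 ± 31.2 at day 14 (SD, n = 2, 4 and 3). Hoxc10 averaged 104 ± 19.8, 60.0 ± 16.9 and 455 ± 104 on the same days. Hoxb2 averaged 44.0 ± 2.83, 18.2 ± 1.89 and 161 ± 18.9. The count of 8 falls dropped to 3 and 4 without OB day 1 replicate 1 or 2, and to 5 and 4 without OB day 6 replicate 2 or 3.

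In OA, 0 rose and 4 fell to day 6 (34.6% of all genes called, 17.6% down), namely Hoxa3, Hoxa4, Hoxb5 and Hoxc4. The share of Hox genes that fell in OA was not above that of all genes. Without OA day 1 replicate 1 the count was 2, and Hoxa4, Hoxb5 and Hoxc4 were no longer called. From day 6 to day 14, 5 OA genes rose (8.14%, 4.05% up), namely Hoxa3, Hoxb1, Hoxb3, Hoxb5 and Hoxb6. This count was 11 without OA day 14 replicate 3 and 3 without OA day 6 replicate 2 or the library labelled OA day 14 replicate 2. In ODR, Hoxc4 fell by day 6 (25.1% of all genes, 12.5% down) and Hoxc5 fell from there to day 14 (3.95%, 1.68% down), and each of these calls was lost without either ODR day 6 library. The first was also lost without ODR day 1 replicate 1, and the second without any of the ODR day 14 libraries. Without ODR day 1 replicate 2, OA day 14 replicate 1, the library labelled OA day 14 replicate 2 or OB day 14 replicate 1, 2 genes fell in the first interval, and without OA day 6 replicate 3, 1 rose and 1 fell. With all libraries 0 Hox genes rose in ODR in either interval. At an unadjusted limma p below 0.05 the first interval had 3 of 27 Hox genes and 5054 of all 13860 genes. The second had 2 Hox genes and 2501 of all genes.

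The change of the OB minus ODR difference between day 6 and day 14 was tested directly. It was positive and called for 21 of 27 Hox genes and negative for 0 (35.4% of all genes called, 18.3% up), with a median of 1.90. Hoxb1 is counted here and in the same test against OA, although its call was fixed by the filter. Hoxb9 gave 3.68 ± 0.62 (adjusted p = 0.000239), Hoxa3 3.32 ± 0.53 (adjusted p = 0.000142) and Hoxc10 3.13 ± 0.47 (adjusted p = 9.04e-05). Against OA, the same test called 13 genes upward and 0 downward (32.8%, 16.9% up), with 2.60 ± 0.44 for Hoxc10 (adjusted p = 0.000315) and 2.46 ± 0.32 for Hoxa11 (adjusted p = 4.38e-05). Hoxa13 had 0.14 ± 0.97 against ODR, since it was lower in OB at both days.

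**Figure D4:**
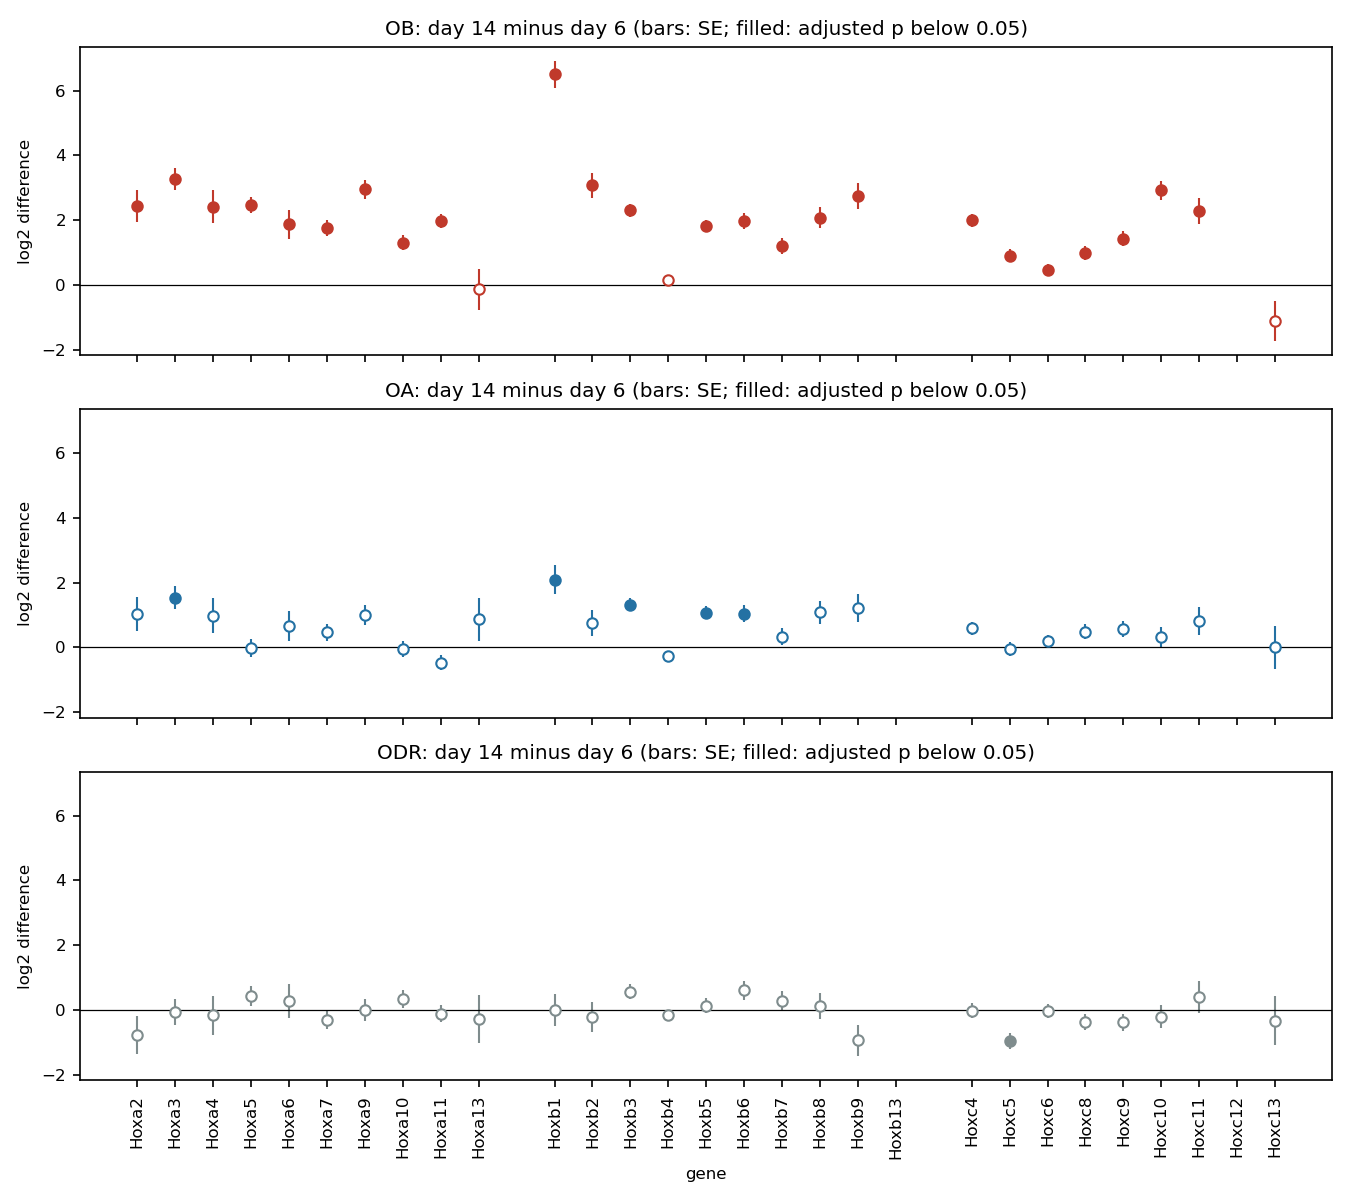
Log2 difference of day 14 minus day 6 (limma, bars are SE) for each tested Hox gene in OB, OA and ODR, on 1 scale, with filled points for an adjusted p below 0.05. OB has 24 filled points above 0, OA has 5 and ODR has 1 below 0.

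BMP4, a growth factor of the TGF-beta family that acts in mesoderm and posterior patterning, was added to OB and ODR cultures. In OB at day 6, 11 of 27 Hox genes rose with BMP4 and 0 fell, where 32.5% of all genes were called (15% up). The median log2 difference was 0.74, against -0.02 for all genes. HoxB held 7 of the 11 (of 9 tested, median 1.59), HoxA 2 of 10 (median 0.69) and HoxC 2 of 8 (median 0.11). By position, 4 of 5 anterior, 5 of 13 central and 2 of 9 posterior genes rose.

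Hoxa3 had 63 and 74 in OB with BMP4, against 10, 20, 11 and 10 without (2.39 ± 0.38, adjusted p = 0.000143). Hoxb6, a trunk gene, had 110 and 124 with BMP4, against 44, 26, 29 and 44 without (1.72 ± 0.28, adjusted p = 0.000162). Hoxb5 had 43 and 36 with BMP4, against 18, 13, 20 and 18 without (1.16 ± 0.21, adjusted p = 0.000465). All BMP4 values of these 3 genes lay above all values without it, also for Hoxb2 (71 and 102, against 21, 18, 17 and 17) with a difference of 2.17 ± 0.44 (adjusted p = 0.00105). Hoxb1 had 6 and 3 with BMP4, against 1, 0, 0 and 0 (2.15 ± 0.47, adjusted p = 0.00193), and Hoxb8 had 148 and 130, against 44, 48, 40 and 50 (1.59 ± 0.38, adjusted p = 0.00352). Hoxa4 had 12 and 12 with BMP4, against 2, 2, 2 and 1 (2.26 ± 0.57, adjusted p = 0.00546), and Hoxb9 267 and 224, against 106, 54, 74 and 67 (1.73 ± 0.45, adjusted p = 0.0068). Hoxb3, Hoxc8 and Hoxc9 rose by 0.79, 0.74 and 0.81. Those 3 and Hoxb9 lost their call without OB with BMP4 replicate 1, which left 7.

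Several genes high in OB at day 14 did not pass with BMP4 at day 6. Hoxa9 had 118 and 126 with BMP4, against 98, 76, 80 and 61 (0.64 ± 0.33, adjusted p = 0.141). Hoxc10 had 62 and 51, against 80, 42, 51 and 67 (-0.05 ± 0.34, adjusted p = 0.932), and Hoxa11 61 and 59, against 63, 74, 48 and 35 (0.18 ± 0.25, adjusted p = 0.628). The groups overlapped for Hoxc10 and Hoxa11, whereas the Hoxa9 values with BMP4 lay above those without.

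In ODR, with 1 BMP4 library against 2 (the lone library is assumed to vary like the other groups), 3 Hox genes rose and 0 fell (11.5% of all genes called, 5.06% up). Hoxa3 had 106, against 32 and 29 (1.77 ± 0.54, adjusted p = 0.0416). Hoxc13, a hair and nail gene, had 30, against 3 and 2 (3.16 ± 1.00). Its call was lost without a filter, with the replicate block and without many single libraries of other groups, those of OA and OB at day 1 among them. Hoxb1 had 4 and was listed at 0 without BMP4, and its call was lost with a pseudocount of 8 or with limma's trend. All of these calls were lost when either ODR library without BMP4 was left out or when the column shared by both groups was kept in both. The call of Hoxa3 was also lost without OA day 6 replicate 2, OB day 6 replicate 3, ODR day 14 replicate 2 or either OB library with BMP4. The BMP4 effects of OB and ODR did not differ for any Hox gene in limma's test of the difference (0 called, 1.26% of all genes). At an unadjusted p below 0.05 the same limma test had 2 Hox genes and 1509 of all 13860 genes. That test had SEs of 0.24 to 1.23 for the Hox genes.

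**Figure D5:**
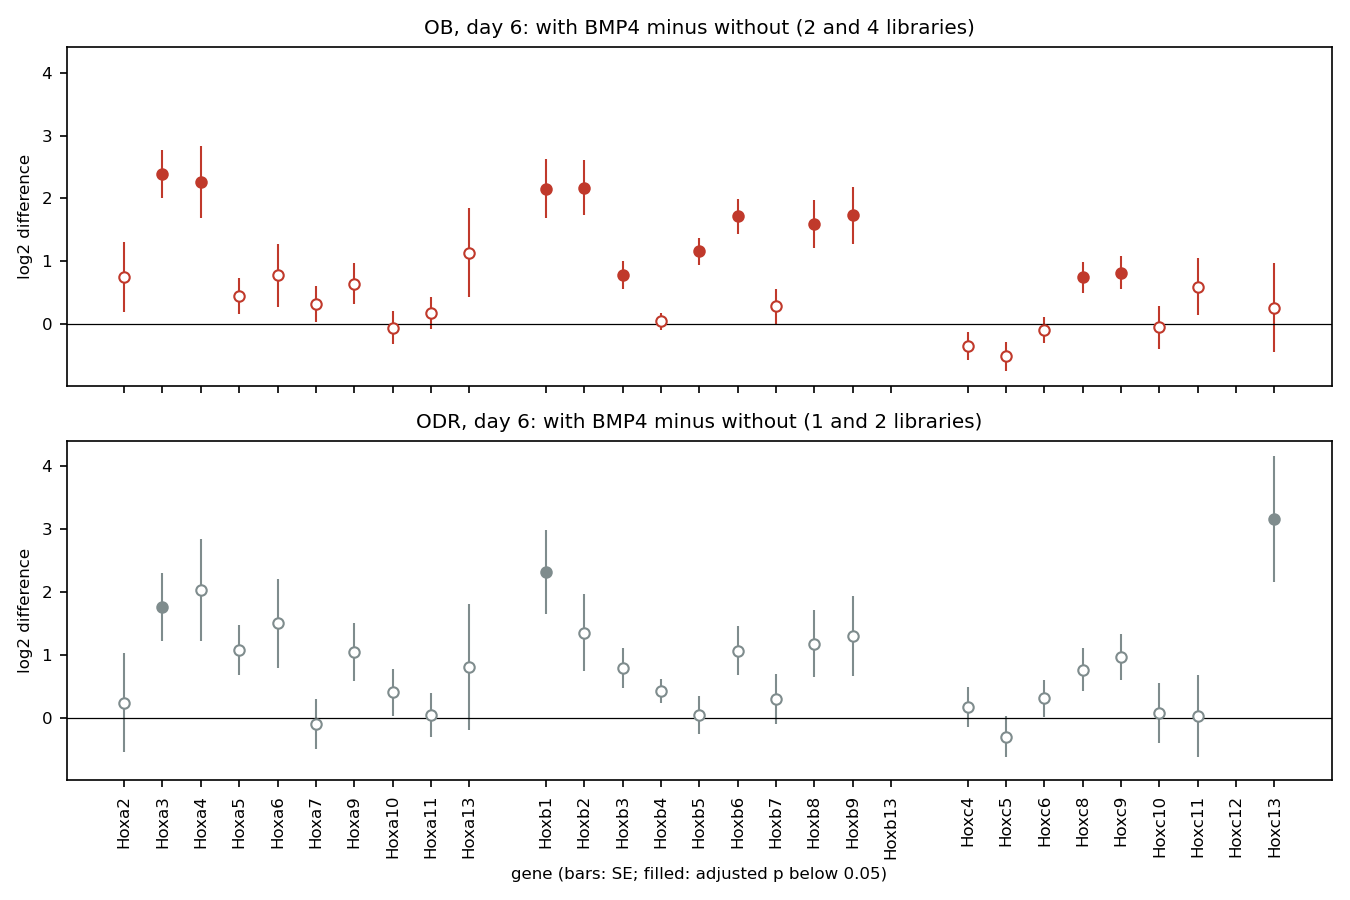
Log2 difference with minus without BMP4 at day 6 (limma, bars are SE) for each tested Hox gene in OB and in ODR, on 1 scale, with filled points for an adjusted p below 0.05. OB has 11 filled points, 7 of them in HoxB, and ODR has 3.

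Summed markers of several cell types differed with BMP4 in OB, where a sum follows its most abundant genes and need not hold for each marker. The sum of the 7 epithelial markers was 348 to 882 with BMP4, against 67 to 115 without, with none at 0 in all libraries with BMP4 and Cldn6 at 0 without it. The 14 fibroblast and mesenchymal markers summed to 35284 to 36085 with BMP4, against 55941 to 58579 without. Neural progenitor markers (8) summed to 1128 to 1149 with BMP4, against 2275 to 3072 without, and endothelial markers (5) to 106 to 134, against 139 to 223. The 8 caudal and primitive streak markers summed to 7 to 16 with BMP4 and 7 to 26 without, with Fgf8 and Wnt3a at 0 in both. The part of these markers' cells in the Hox values was not tested.

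Genes that act with or on the clusters were followed as lists, whose counts stand beside the 54.7% of all genes called in OB against ODR at day 14 (28% up and 26.7% down). The fourth cluster, HoxD, had 4 of 9 genes higher and 1 lower in OB than in ODR at day 14 (median 0.93), a share near that of all genes. Hoxd4 averaged 260 ± 36.6 in OB and 49.0 ± 20.1 in ODR (SD, n = 3 each), and Hoxd9 107 ± 20.6 and 16.3 ± 2.52. Hoxd1 was at 18.7 ± 8.39 in OB and listed at 0 in ODR, and it passed the filter only through OB day 14, so its rise was fixed by that choice. At day 6, 0 HoxD genes rose and 3 of 9 fell in OB against ODR, where 4.81% of all genes fell. The 3 caudal factors were detected in OB at day 14: Cdx2 was at 187 ± 18.0, Cdx4 at 116 ± 5.29 and Cdx1 at 84.7 ± 34.1 in OB, and all were listed at 0 in ODR. Cdx1 and Cdx2 passed the filter only through OB day 14, so no count of calls is given.

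The retinoic acid list had 9 of 17 genes higher and 2 lower in OB than in ODR at day 14, where 28% of all genes were higher and 26.7% lower. Crabp2, which carries retinoic acid in the cell, averaged 1053 ± 102 in OB and 5.33 ± 2.08 in ODR, and Stra6, a retinol receptor, 635 ± 161 and 5.67 ± 1.53. With BMP4 in OB at day 6, where 32.5% of all genes were called (15% up), 6 of 17 rose and 0 fell, with Cyp26b1, which degrades retinoic acid, at 320.5 ± 37.5 with BMP4 and 65.8 ± 19.3 without. The 8 Hox cofactors of the TALE homeodomain class followed here had 3 up and 1 down at day 14 in OB against ODR, and 0 up and 3 down with BMP4 in OB at day 6, both near the share called over all genes. Meis1 averaged 71.5 ± 17.7 with BMP4 and 156 ± 16.7 without.

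Chromatin regulators of the clusters were compared at day 14 in the same way, where 54.7% of all genes were called (28% up and 26.7% down). Of 12 trithorax and MLL genes 7 rose and 1 fell in OB against ODR, with Wdr5, a core subunit, up by 1.24 ± 0.10 (adjusted p = 3.63e-08). Of 10 PRC1.1 genes 6 rose and 0 fell. Kdm2b is counted among them, but it already set OB apart at day 1 (18690 in both libraries, against 308 and 460 in ODR). Its call therefore repeats how the combinations differ. Bcor averaged 624 ± 111 in OB and 237 ± 31.0 in ODR. PRC2 had 7 of 11 up and 3 down, and canonical PRC1 3 of 11 up and 5 down, with Cbx2, its chromodomain subunit, up by 3.14 ± 0.46 (adjusted p = 1.53e-05). Of 5 tested long noncoding RNAs of the clusters 4 rose and 0 fell, among them Hoxb5os, which passed the filter only through OB day 14. Hoxaas3, which runs antisense to Hoxa3 and Hoxa7, averaged 109 ± 25.9 in OB and 17.7 ± 3.79 in ODR, and Hoxb5os 32.7 ± 9.02 and 1.33 ± 0.577.

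At day 9, ODB and ODDR have 1 library each without BMP4 and no test. Of the 27 genes 4 were higher in ODB by at least 1 on the log2 scale (11.2% of all genes), with 20 for Hoxb1, 196 for Hoxa9, 112 for Hoxa5 and 4 for Hoxc13 in ODB. In ODDR Hoxa9 was 86, Hoxa5 41 and Hoxc13 1, and Hoxb1 was listed at 0. Hoxa13 was lower by at least 1 (12% of all genes), with 3 in ODB and 18 in ODDR. The share higher is near that of all genes. Hoxc10 was 73 in ODB and 70 in ODDR, and Hoxc5, Hoxc6 and Hoxc8 were lower in ODB by differences of -0.45, -0.67 and -0.41.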

How the data were processed

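The 29 members and the gene lists were chosen with earlier results of these data known. Of the rows that match the name rule, 1 is not reported here, nor is 1 gene of the cofactor list. The submitters' processing notes name the tools bcl2fastq, Bowtie2 (2.2.5) and RSEM and the build mm10. The deposited values are the authors' normalized tag counts, whole numbers treated as a score because they are not read counts. No source used here gives the normalization step. Depth is therefore unknown, and values carry no counting interval. All columns of the table were mapped to samples by their titles.

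Values were taken as log2(value + 1), genes with at least 10 in at least 2 of the 27 tested libraries were kept (13860), and limma 3.58.1 in R 4.3.3 fitted 11 group means with 16 residual degrees of freedom, without block, trend or robust options. A fold on this scale understates the change of low genes. Genes were called at a Benjamini-Hochberg adjusted p below 0.05, two-sided, over all genes in each of 17 comparisons and 3 differences between effects. The replicates have no stated origin, so the tests set differences against a spread among libraries that may be technical. The fit was tested on simulated data. Hox genes may all be named, with full statistics for at most 6 per comparison and direction and their neighbours, and list genes are named by adjusted p, at most 3 per list.

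Gene positions come from GENCODE M21 (29 matched by identifier), and promoters from RefSeq. Of the 29 Hox genes 11 have exons that overlap another annotated gene (5 on the same strand, 7 on the other), and whether the counting used strand is not given. Alternatives were a pseudocount of 8, no filter, fits of the compared groups alone, the shared column kept under both labels, limma's trend, equalised library medians, a replicate block and leaving out each library.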

Additional observations from a re-analysis of the deposited data

Results flagged for a closer look

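Among the 4 OB libraries of day 6 without BMP4, a single library stood apart from the other 3 for 3 Hox genes. Replicate 2 had 20 for Hoxa3, against 10, 11 and 10. Replicate 4 had 1 for Hoxa4, against 2 in each of the others, and replicate 1 had 1 for Hoxb1, which was listed at 0 in the others. Chance alone gives such a gap in about 1 of 20 groups. That share does not hold for the last 2 cases, which are steps of 1 in whole numbers near 0.

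The OB minus ODR difference changed between day 6 and day 14, by limma's test of that change, for 21 Hox genes, and every change was upward in log2. In HoxA these were Hoxa2 (3.21), Hoxa3 (3.32), Hoxa4 (2.58), Hoxa5 (2.03), Hoxa7 (2.05), Hoxa9 (2.97), Hoxa10 (0.97) and Hoxa11 (2.11). The call of Hoxa10 was lost without a filter, in the compared groups alone, with the shared column kept and with the replicate block. It was also lost without many single libraries. In HoxB they were Hoxb1 (6.50), Hoxb2 (3.29), Hoxb3 (1.74), Hoxb5 (1.69), Hoxb6 (1.37), Hoxb8 (1.97) and Hoxb9 (3.68), where the value of Hoxb1 rests on the 1 added before the log. In HoxC the changed genes were Hoxc4 (2.02), Hoxc5 (1.88), Hoxc8 (1.37), Hoxc9 (1.82), Hoxc10 (3.13) and Hoxc11 (1.90).

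The OB minus OA difference changed in the same way for 13 Hox genes. In HoxA they were Hoxa3 (1.73), Hoxa5 (2.49), Hoxa7 (1.28), Hoxa9 (1.95), Hoxa10 (1.35) and Hoxa11 (2.46). In HoxB they were Hoxb1 (4.41), Hoxb2 (2.32), Hoxb3 (0.98) and Hoxb5 (0.76), again with Hoxb1 resting on the 1 added. In HoxC they were Hoxc4 (1.41), Hoxc5 (0.96) and Hoxc10 (2.60). The call of Hoxb5 was lost without a filter, in the compared groups alone, with limma's trend and with the replicate block. It was also lost without several single libraries. Both tests use the same OB libraries.

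Libraries outside the tests held some values above all 27 tested libraries. The mESC library had 59 for Hoxb13, 6 for Hoxc12 and 103 for Hoxc13. The MEF library had 192 for Hoxc8. The ODB day 9 library without BMP4 had 30 for Hoxa4, 120 for Hoxb4 and 76 for Hoxb5. Each of these groups is 1 library, so no test was made.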

How the results depend on the processing

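For OB against ODR at day 14, 22 or 23 Hox genes were called under each of the 7 alternative settings other than leaving out a library. For OB against OA at day 14, the fits of the compared groups alone called 17, and the other settings 22 or 23. Hoxb5, Hoxb6, Hoxb9, Hoxc5 and Hoxc9 lost that call. With the fits of the compared groups alone, counts moved to 2 (OB against ODR, day 6), 0 (OA against ODR, day 6 and day 14), 2 (OB against OA, day 6), 0 (BMP4 in ODR), 0 (day 6 against day 1 and day 14 against day 6 in ODR) and 0 (day 14 against day 6 in OA). A pseudocount of 8 gave 0 (OA against ODR, day 14), 1 (the difference between BMP4 effects) and 21 (the change of OB minus OA between day 6 and day 14). Without a filter, counts were 1 (BMP4 in ODR) and 5 (day 6 against day 1 in OB). Keeping the shared column gave 0 (BMP4 in ODR), 2 (day 6 against day 1 in ODR) and 5 (day 6 against day 1 in OB). Of 144 called differences of single genes, 34 lost their call in the fits of the compared groups alone, 13 with the replicate block, 9 without a filter, 8 with the shared column kept, 4 with a pseudocount of 8, 2 with limma's trend and 0 with equalised medians. No result reversed its direction under any of these. The cause of these moves was not tested, except that fits of the compared groups alone hold fewer samples.

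By the labels the libraries share only a replicate number. Same-numbered deviations correlated by -0.16 to 0.32 over 100 pairs (median 0.04, against -0.02 for other numbers), and 18 of 26 libraries correlated best with their own number, a hint from the data and not from the design. The replicate block gave 2 (OB against ODR, day 6), 1 (OA against ODR, day 6), 2 (OB against OA, day 6) and 1 (BMP4 in ODR).

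Leaving out each library in turn gave these ranges of called Hox genes. Against ODR, OB had 0 at day 1, 0 to 6 at day 6 and 22 to 24 at day 14, and OA had 0 at day 1, 0 to 4 at day 6 and 1 to 3 at day 14. OB against OA had 0 at day 1, 0 to 1 at day 6 and 22 to 23 at day 14. BMP4 gave 7 to 12 in OB, 0 to 4 in ODR and 0 for their difference. Day 6 against day 1 gave 3 to 10 in OB, 2 to 6 in OA and 0 to 2 in ODR. Day 14 against day 6 gave 23 to 24 in OB, 3 to 11 in OA and 0 to 1 in ODR. The change between day 6 and day 14 gave 18 to 22 for OB minus ODR and 11 to 16 for OB minus OA. Equalising library medians moved the median of all genes by at most 0.02 and no count by more than 1.5 times. Groups of 1 to 4 libraries and unknown depth limit the precision of low genes such as Hoxa4, Hoxa6, Hoxc11 and Hoxc13.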
